A study of Mus musculus with 3 samples.

Results

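Among cells sorted from mouse tumours for single-cell RNA sequencing, 399 of 27340 cell barcodes drew at least 10% of their UMIs (unique molecular identifiers, which count captured RNA molecules) from mitochondrial genes. They were chosen on that measured share alone, counted over the 13 genes whose symbols start with mt-, with no other filter. The mitochondrial share and the mitochondrial genes are therefore described below without a test, and the other genes are measured on a scale that leaves the mitochondrial genes out. The cells came from MC38 tumours, a mouse colon carcinoma line, which were collected on day 15, following treatment over 5 days. After digestion of the tumours, cells stained by an antibody to CD3 were sorted by flow cytometry. One library each was deposited under the labels PBS, mix and homo, made with a 10x Genomics 3′ kit. The series title names an interleukin-2 aimed at LAG3, which restrains T cells. The labels say neither what mix and homo contained nor the strain, age and number of the mice, so no library has a replicate and no test between libraries is possible.

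Mitochondria carry a small genome of their own, whose messenger RNAs code for subunits of the respiratory chain and the ATP synthase and stay inside the organelle. Messenger RNAs of nuclear genes are mostly exported to the cytoplasm, while some long non-coding RNAs and unspliced precursors stay in the nucleus. The mitochondrial share is commonly used to judge the state of a cell in such data, because it is high where cytoplasmic RNA has been lost as well as in cell types rich in mitochondria, and activated T cells also increase their mitochondrial mass.

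The barcodes with at least 10% mitochondrial UMIs, called high-mitochondrial barcodes below, were unevenly spread over the libraries. PBS held 26 among 10351 barcodes, which is 0.251% with an exact Clopper-Pearson 95% interval of 0.164 to 0.368%. Mix held 26 among 8461, or 0.307% (0.201 to 0.450%). Homo held 347 among 8528, or 4.07% (3.66 to 4.51%). The intervals here and below cover counting error only, and 87.0% of the high-mitochondrial barcodes came from homo. A barcode sequence found in more than 1 library was rare among them: 10 of the 399 also occurred in another library, none of them as a high-mitochondrial barcode there. Without all shared sequences the shares were 0.247%, 0.316% and 4.06%.

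High-mitochondrial barcodes held few UMIs. Median depth was 628.5 UMIs for PBS, 770 for mix and 751 for homo, against 4760, 4966 and 6798 in the other barcodes of these libraries, and the richest one held 2409 UMIs. In homo they made up 172 of 365 barcodes with 500 to 750 UMIs (47.1%, 41.9 to 52.4%), 92 of 251 with 750 to 1000 UMIs (36.7%), 65 of 383 with 1000 to 1500 UMIs (17.0%) and 18 of 533 with 1500 to 2500 UMIs (3.38%). None was found among 1354 barcodes with 2500 to 5000 UMIs, which allows a share of up to 0.222%, nor among 5642 richer ones, which allows up to 0.0532%. In the lowest of these UMI classes the share was 8.47% in PBS (16 of 189, 4.92 to 13.4%) and 7.41% in mix (12 of 162, 3.89 to 12.6%), so homo stood above both within a class of like depth. Depth thus moves with the mitochondrial share in every library. Several comparisons below are therefore also given against other barcodes with under 1500 UMIs, called shallow, whose median depth in homo, 972 UMIs, was still above that of the high-mitochondrial barcodes.

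**Figure D1:**
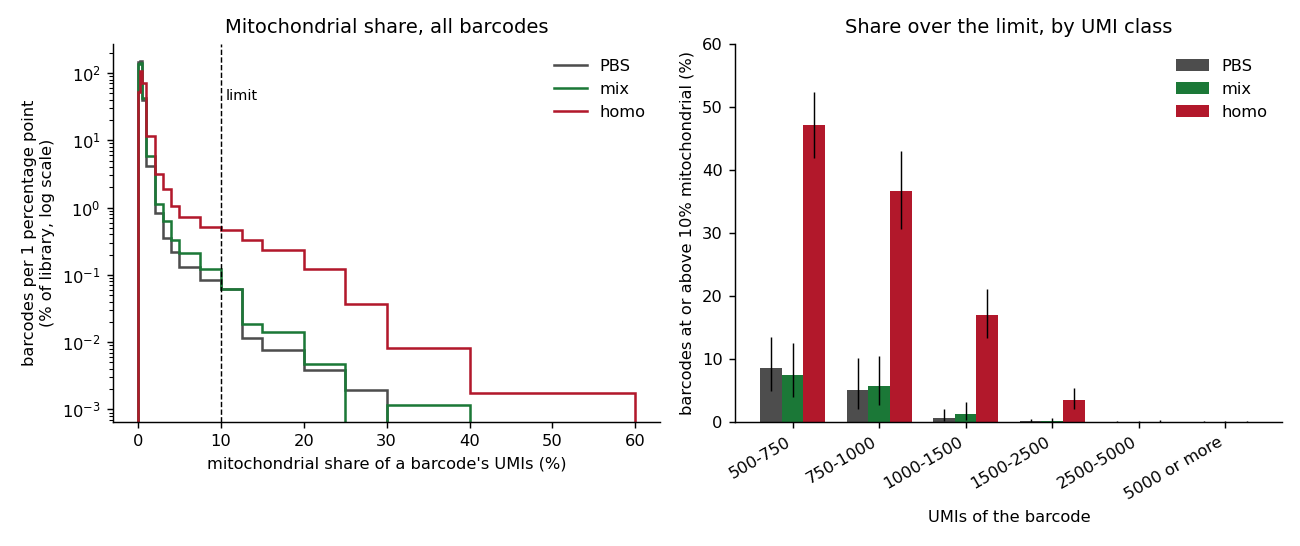
Left, distribution of the mitochondrial share of single barcodes in PBS, mix and homo, as barcodes per percentage point (percent of the library, log scale), with the 10% limit dashed. Right, percent of barcodes over the limit within each class of UMIs, bars from 0 with exact 95% intervals; the homo bars are the highest in the 4 classes below 2500 UMIs and reach 47.1% in the lowest.

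No barcode in the files holds fewer than 500 UMIs, so the 10% limit itself sets a least number of mitochondrial UMIs, which is given only as a description. A high-mitochondrial barcode held a median of 86.5 mitochondrial UMIs in PBS, 98.5 in mix and 122 in homo, against 16, 17 and 41 in the other barcodes, which were several times deeper. Detected genes were fewer, with medians of 328.5, 369 and 361, against 666, 646 and 574 in shallow barcodes. The median mitochondrial share was 12.2% (PBS), 12.6% (mix) and 15.2% (homo), and the highest single values were 26.3%, 31.1% and 57.3%. There was no gap at the limit: 45 homo barcodes lay between 9 and 10% and 44 between 10 and 11%. Those just below the limit had a median of 786 UMIs, 470 genes and 5.77% ribosomal protein UMIs, and those just above it had 786 UMIs, 390 genes and 2.78%.

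In homo the 13 mitochondrial messenger RNAs kept nearly the same proportions to each other. There, mt-Co1, a catalytic subunit of cytochrome c oxidase, made up 24.4% of mitochondrial UMIs in high-mitochondrial barcodes and 26.1% in the others. The ATP synthase subunit mt-Atp6 made up 19.2% against 17.6%, and mt-Cytb, of complex III, 8.51% against 8.61%. All 13 within-mitochondria log2 differences in homo lay between -0.29 for mt-Nd3 and 0.22 for mt-Nd4l, both subunits of complex I. In high-mitochondrial barcodes mt-Co1 made up 22.5% against 28.9% in PBS and 22.6% against 26.0% in mix, a wider gap than in homo. In mix the log2 difference was 0.48 (0.29 to 0.67) for mt-Nd4l, 0.46 (0.11 to 0.78) for mt-Nd5 and -0.71 (-1.71 to 0.14) for mt-Nd3, from the UMIs of 26 barcodes.

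Outside the mitochondrial genes, the RNA of these barcodes differed widely from that of the other barcodes. UMIs were summed over the barcodes of each side of a library and expressed as CPM, scaled to the same total of non-mitochondrial UMIs. In homo the high-mitochondrial barcodes gave 246695 such UMIs, in PBS 16356 and in mix 18362, so that 1 UMI there stands for 61.1 and 54.5 CPM. Of 4007 genes with at least 50 CPM on either side in homo, 1248 were 2-fold or more higher (31.1%) and 1299 were 2-fold or more lower (32.4%), 7 of the latter without a UMI in the high-mitochondrial barcodes. Across the 3 libraries, edgeR's quasi-likelihood test on the 6 sums, with the library as a block, called 871 of 3446 genes higher (25.3%) and 1159 lower (33.6%) at a Benjamini-Hochberg adjusted p of 0.05. DESeq2 called 276 higher and 1240 lower. The verbs rose and fell below refer to the edgeR calls. The test rests on homo: with PBS and mix alone it called 0 genes in either direction, with 851 at an unadjusted p under 0.05 and 57 higher and 474 lower by DESeq2. Since 3 different treatments stand in for replicates, the spread between them may include effects of treatment.

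Directions in PBS and mix can be set beside those of homo, gene by gene. Among 566 genes whose whole interval lay beyond 2-fold higher in homo, the interval in PBS lay above equality for 179 and below it for 0, and spanned it for 387. Among 704 genes wholly beyond 2-fold lower in homo, 328 lay below equality in PBS, 0 above, and 376 spanned it. The counts in mix were 195, 0 and 371 for the first set and 330, 0 and 374 for the second. These sets were picked by their homo values, and the sums of PBS and mix each cover only 26 barcodes.

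The choice of scale moves every ratio. The median log2 ratio of all genes compared in homo was 0.13 on the scale used, -0.35 when all UMIs were used, -0.42 when ribosomal protein genes and Malat1 were also left out, and 1.11 when the 15 highest genes and the ribosomal RNA locus models described below were left out. Of the genes at least 2-fold apart, 49.0%, 36.8%, 33.0% and 74.9% were higher on these scales. Gene groups whose direction depends on this choice are marked as such below.

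Several of the genes with the highest ratios were found in nearly all of these barcodes, and others in few. In homo, Camk1d, a calcium- and calmodulin-dependent kinase, stood at 26073 CPM in high-mitochondrial barcodes and 591 CPM in the others. It stood at 22622 against 541 CPM in PBS and at 27448 against 699 CPM in mix. Gphn, the scaffold protein gephyrin of inhibitory synapses and molybdenum cofactor synthesis, stood at 25140 against 497 CPM in homo, 20298 against 367 in PBS and 21294 against 430 in mix. Both rose in edgeR's quasi-likelihood test, Camk1d by 5.19 ± 0.37 on the log2 scale (SE, Benjamini-Hochberg adjusted p = 6.0e-41) and Gphn by 5.50 ± 0.38 (adjusted p = 6.2e-44).

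Other genes of this set encode regulators of chromatin and transcription, enzymes and a receptor chain. Jarid2, a partner of Polycomb repressive complex 2, stood at 6915 against 124 CPM in homo, 5564 against 70.6 in PBS and 6862 against 114 in mix. Cdk8, the kinase of the Mediator complex, stood at 62916 against 5134 CPM in homo, 49401 against 3475 in PBS and 53044 against 4671 in mix. Lars2, the nuclear-encoded leucyl-tRNA synthetase of mitochondria, stood at 22453 against 871 CPM in homo, 25006 against 771 in PBS and 31859 against 1060 in mix. These 3 genes rose in the test across libraries. Il31ra, a chain of the interleukin-31 receptor, stood at 12145 against 381 CPM in homo, and its levels in high-mitochondrial barcodes of PBS (29530 CPM) and mix (26740 CPM) were higher than in homo.

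Further genes of the 15 highest were Tmtc2 (log2 ratio 6.13 in homo), a mannosyltransferase of the endoplasmic reticulum, Kpna1 (4.69), a nuclear import receptor, Cmss1 (3.84), Filip1l (3.64), AY036118 (4.79) and the histone genes Hist1h4f (5.94), Hist1h2bm (4.36) and Hist1h4j (4.62). Cmss1 and Filip1l overlap on opposite strands, so their reads may not be separable. Hist1h4f and Hist1h4j rested on 18 and 15 UMIs in homo, neither was tested across libraries, and Hist1h4j had 0 UMIs in the high-mitochondrial barcodes of PBS and mix. Of the 15 genes, the other 13 rose. All 15 were picked by their homo values, which the test also uses, so these calls add no support. That includes the calls given above for Camk1d, Gphn, Jarid2, Cdk8 and Lars2. In homo, Tmtc2, Kpna1 and Hist1h2bm passed the 50 CPM minimum only through the high-mitochondrial side. They stood at 10.8, 38.6 and 7.91 CPM in the other barcodes. Together the 15 genes took 23.3% of the non-mitochondrial UMIs of high-mitochondrial barcodes in homo, 23.1% in PBS and 25.4% in mix, against 1.17%, 0.874% and 1.17% in the other barcodes.

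The number of barcodes behind these genes differed widely. Of the 347 homo barcodes, 346 held a UMI of Cdk8, 346 of Cmss1, 344 of Camk1d, 344 of Gphn and 343 of Lars2, and no single barcode gave more than 4.08% of the UMIs of any of these 5 genes. Kpna1 was found in 134, Tmtc2 in 119, Hist1h2bm in 21, Hist1h4j in 13 and Hist1h4f in 12, with 3 of the 15 UMIs of Hist1h4j from 1 barcode. Shares at equal depth were taken by thinning each barcode to 500 non-mitochondrial UMIs, which left 266 high-mitochondrial barcodes, 8168 others and 657 shallow others in homo. A UMI of Camk1d was then present in 98.9% of high-mitochondrial barcodes, 24.8% of the others and 67.7% of the shallow others. For Jarid2 the shares were 79.0%, 8.72% and 43.1%. Shallow barcodes under the limit thus held intermediate shares of both genes.

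**Figure D2:**
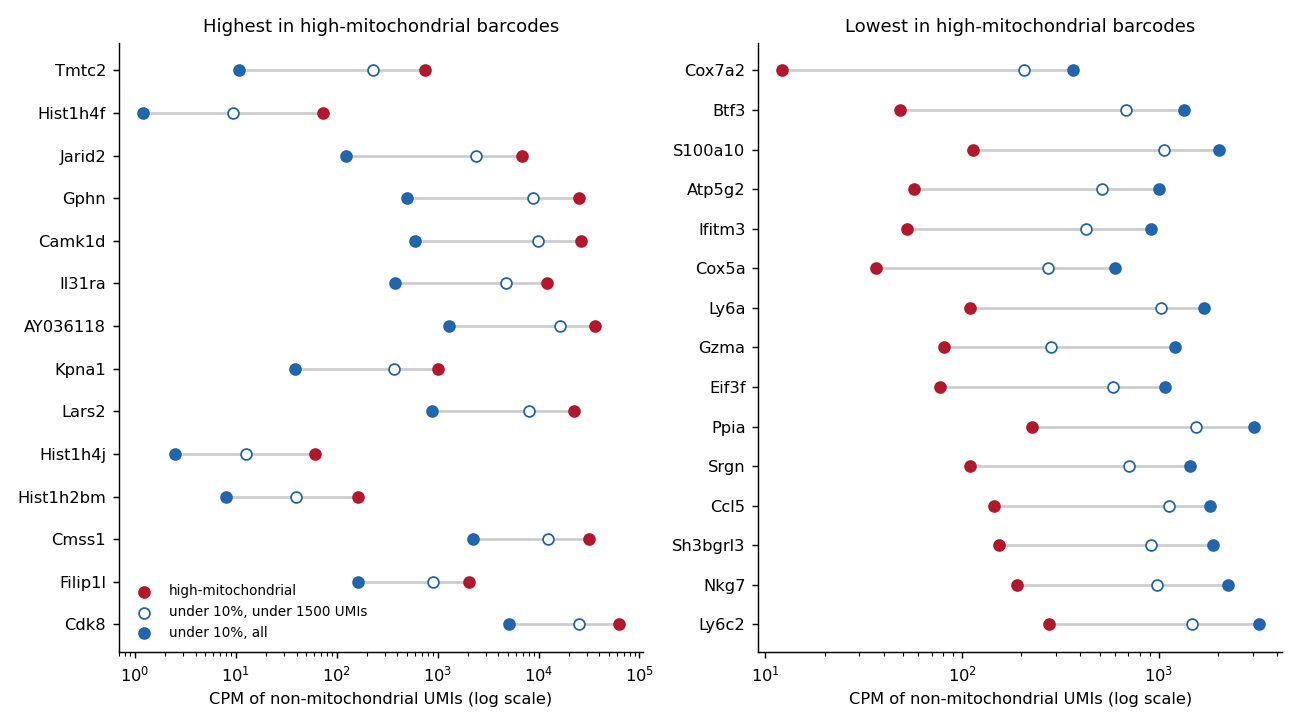
CPM of non-mitochondrial UMIs (log scale) in homo for 14 of the 15 genes highest and the 15 lowest in high-mitochondrial barcodes, as sums over high-mitochondrial barcodes (red), other barcodes (filled blue) and other barcodes under 1500 UMIs (open blue), with no error bars. For each gene shown the shallow barcodes lie between the other sums.

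Gene models of a ribosomal RNA locus stood out further. Gm42418, Gm26917 and AY036118, which lie next to each other in the GENCODE annotation, were singled out after their values were seen. They took 18.7% of non-mitochondrial UMIs in high-mitochondrial barcodes of homo, 24.3% in PBS and 18.8% in mix, against 1.06%, 0.927% and 1.24% in the other barcodes and 8.01% in the shallow barcodes of homo. Gm42418 alone stood at 125604 against 9019 CPM in homo, and Gm26917 at 25213 against 325 CPM. Both rose in edgeR's quasi-likelihood test (Gm42418 by 3.70 ± 0.32, adjusted p = 1.2e-28; Gm26917 by 6.65 ± 0.40, adjusted p = 1.8e-57, log2 scale with SE). Both models were singled out by values that the test also uses, so these calls add no support. AY036118 overlaps Gm42418 on the opposite strand, so their counts may not be separable. Whether this locus has a part in the levels of the other highest genes was not tested.

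Malat1 was higher in these barcodes than in all other barcodes, but was not called against shallow ones. This long non-coding RNA, retained in nuclear speckles, stood at 8926 CPM in high-mitochondrial barcodes of PBS, 11164 in mix and 11853 in homo, against 2553, 2786 and 2012 in the other barcodes. It rose by 1.94 ± 0.34 on the log2 scale (SE, edgeR adjusted p = 1.6e-07), while against shallow barcodes the difference was 0.35 ± 0.37 (edgeR adjusted p = 0.557). The share of homo barcodes with a Malat1 UMI at 500 UMIs was 92.5%, against 61.4% in the others and 83.1% in the shallow others. Neat1, the backbone of paraspeckles, stood at 138 against 38.6 CPM in homo and 381 against 39.6 CPM in mix, and had 0 UMIs in high-mitochondrial barcodes of PBS. Against shallow barcodes Neat1 was not called either (0.025 ± 0.39, edgeR adjusted p = 0.978), and its log2 ratio in homo was -0.22. The nuclear-retained list as a whole took 0.923% of non-mitochondrial UMIs in high-mitochondrial barcodes of PBS, 1.19% in mix and 1.23% in homo, against 0.863%, 0.962% and 0.879% in shallow barcodes.

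Genes for chromatin regulators and large scaffold proteins with long transcripts were higher as a group. In homo 18 of 20 were at least 2-fold higher and 0 lower, with a median log2 ratio of 1.65, against 31.1% higher and a median of 0.13 over all genes. Across libraries 15 of the 20 rose and 0 fell. Kmt2d, counted in both, stood at 195 against 22.3 CPM in homo. It passed the 50 CPM minimum there only through the high-mitochondrial side, so its part in the counts carries no weight. The list holds genes with long transcripts. Of the fifth of named genes with the longest transcripts, 64.0% were higher in homo. Kmt2a, a histone H3 lysine methyltransferase, stood at 367 CPM in high-mitochondrial barcodes of PBS, 435.7 in mix and 543 in homo, against 94.1, 103 and 101 CPM in the others. Macf1, which links actin and microtubules, stood at 550.3, 708 and 888 CPM against 145, 159 and 176 CPM, and Ahnak, a giant scaffold protein, at 1406, 1852 and 1970.0 against 426, 432.5 and 456 CPM. Against shallow barcodes of homo, 2 of the 20 were at least 2-fold higher, with a median of 0.42.

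Transcripts of replication-dependent histone genes, which are made in S phase and mostly lack a poly(A) tail, were more abundant as well. This list was added after values were seen. Summed over all 67 genes it stood at 3913 CPM in high-mitochondrial barcodes of PBS, 3050.0 in mix and 4504 in homo, against 520, 476 and 666 CPM in the others. In homo the shallow barcodes held 0.123% of UMIs in these genes, against 0.450% in high-mitochondrial barcodes. Most single histone genes passed the 50 CPM minimum only through the high-mitochondrial barcodes, so a count of higher members would carry no weight. Hist1h1e, a linker histone that passed on both sides, stood at 722 against 104 CPM in homo and rose by 2.41 ± 0.48 across libraries (SE, edgeR adjusted p = 5.0e-06).

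Transcripts of cytosolic structure and protein synthesis made up the lower side. Ribosomal protein genes took 5.54% of non-mitochondrial UMIs in high-mitochondrial barcodes of homo, against 26.9% in the others and 16.0% in shallow barcodes. Of 81 compared in homo, 76 were at least 2-fold lower and 0 higher, with a median log2 ratio of -2.48, and across libraries 78 of 83 fell and 0 rose. Per barcode, the median ribosomal protein share was 1.82% in PBS, 4.39% in mix and 3.46% in homo, against 22.6%, 22.1% and 26.6%.

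The list of cytoskeletal and cytosolic housekeeping genes behaved alike. In homo 20 of 21 were at least 2-fold lower (median -2.54), and across libraries 19 of 21 fell and 0 rose. Tmsb4x, an actin-sequestering peptide, stood at 611 CPM in high-mitochondrial barcodes of PBS, 1253 in mix and 1544 in homo, against 12042, 12586 and 14393 CPM in the others. Actb, cytoplasmic actin, stood at 1101, 1579 and 1439 CPM against 7365, 7229 and 8220.0 CPM, and the elongation factor Eef1a1 at 734, 926 and 1184 against 7142, 7549 and 8618 CPM. Tmsb4x fell by 3.68 ± 0.38 on the log2 scale (SE, edgeR adjusted p = 1.8e-20). At 500 UMIs 45.9% of high-mitochondrial barcodes in homo held a Tmsb4x UMI, against 96.8% of the others and 76.1% of shallow barcodes. Both lists were also lower against shallow barcodes, with medians of -1.71 and -1.92.

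**Figure D3:**
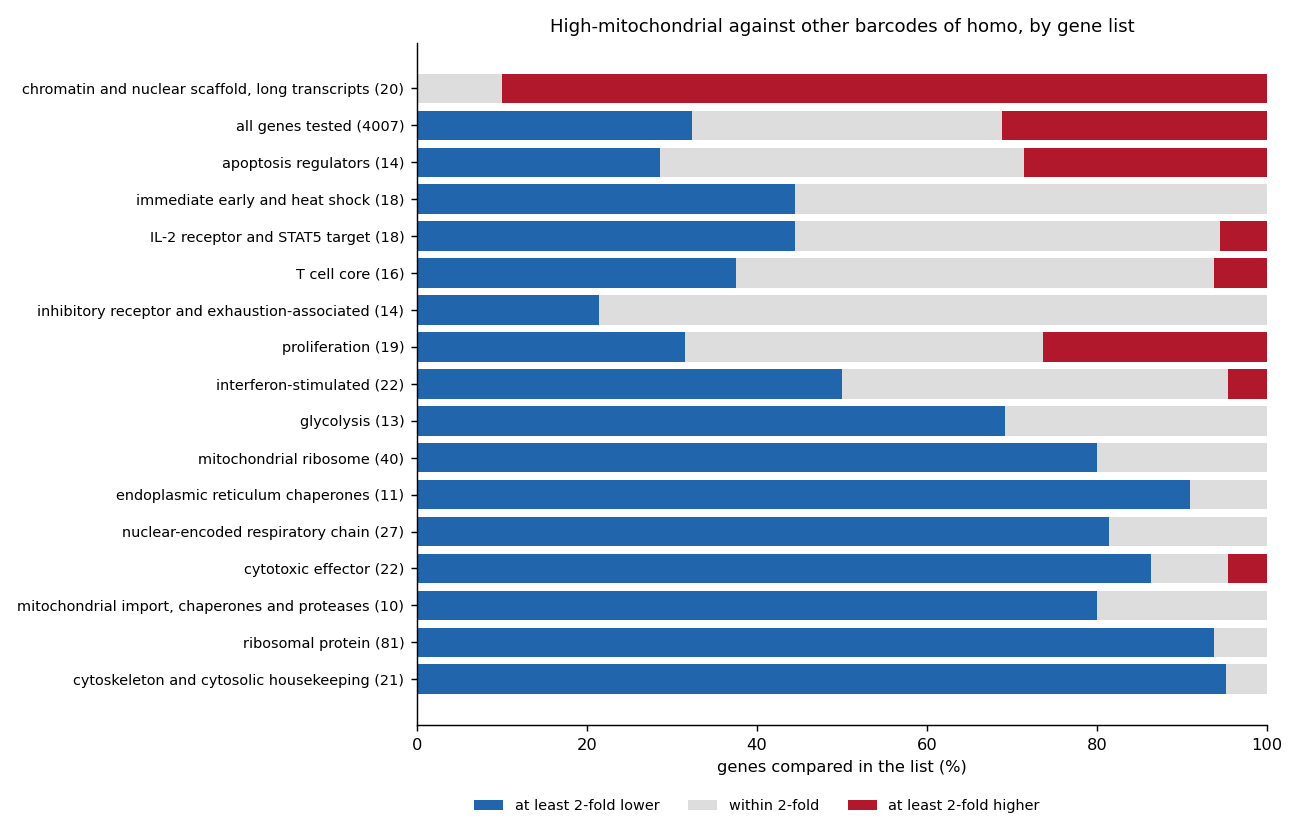
Percent of the genes compared in each list (their number in parentheses) that were at least 2-fold lower (blue), within 2-fold (grey) or at least 2-fold higher (red) in high-mitochondrial barcodes than in other barcodes of homo, beside all 4007 genes compared. Chromatin and scaffold genes with long transcripts are red in 18 of 20, and cytoskeletal genes blue in 20 of 21.

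The genes with the lowest ratios had products in the cytosol, the mitochondrion and at the cell surface. Btf3, a subunit of the nascent polypeptide-associated complex, stood at 48.6 against 1344 CPM in homo, 183 against 1188 in PBS and 218 against 1142 in mix. Ppia, cyclophilin A, stood at 227 against 3061 CPM in homo, 489 against 3595 in PBS and 218 against 3380.0 in mix. The surface proteins Ly6a (log2 ratio -3.96 in homo) and Ly6c2 (-3.55), the annexin partner S100a10 (-4.16), the interferon-induced Ifitm3 (-4.12) and the translation initiation factor subunit Eif3f (-3.80) were lower too. So were the respiratory chain and ATP synthase genes Atp5g2 (-4.14), Cox7a2 (-4.92, from 3 UMIs) and Cox5a (-4.03), and Sh3bgrl3 (-3.62). All 15 genes, which also include Gzma, Srgn, Ccl5 and Nkg7 below, fell in the test across libraries. They were picked by their homo values, which the test also uses, so these calls add no support. In the high-mitochondrial barcodes of PBS and mix, Gzma and Ifitm3 had 0 UMIs.

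Nuclear genes for mitochondrial proteins did not share the high level of the mitochondrial genome's own transcripts. Of 27 genes for nuclear-encoded respiratory chain subunits, 22 were at least 2-fold lower in homo and 0 higher, with a median log2 ratio of -2.28. Across libraries 19 of 26 fell and 0 rose. Cox4i1, a subunit of cytochrome c oxidase, stood at 150.0 against 1114 CPM in homo and 61.1 against 932 CPM in PBS, and had 0 UMIs in high-mitochondrial barcodes of mix, where it was at least 5.57-fold lower. Within the same complex, the mitochondrially encoded mt-Co1 stood at 46924 against 1842 CPM in homo.

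Genes of mitochondrial import and of mitophagy were lower too. Of genes for import, chaperones and proteases, 8 of 10 fell and 0 rose, among them Tomm7, of the outer membrane translocase. All 6 genes tested for mitophagy and mitochondrial dynamics fell, such as Fis1, which acts in fission, and Bnip3l, a mitophagy receptor. Over all genes tested, 33.6% fell. In PBS and mix, genes at least 2-fold apart went both ways. For import 3 were higher and 3 lower in PBS, and 2 and 4 in mix. For mitophagy the numbers were 1 and 2, and 3 and 2. Summed levels were lower there, for import at 611 against 1922 CPM in PBS and 599 against 1899 in mix. For mitophagy they were 489 against 1459 and 436 against 1404 CPM. Genes of mitochondrial DNA maintenance and expression did not share one direction. The test called 1 of 3 higher, Nrf1, a transcription factor for respiratory genes (77.0 against 35.8 CPM in homo), and 1 lower, Slirp, which stabilises mitochondrial messenger RNAs. Slirp gave only 0, 2 and 2 UMIs in the high-mitochondrial barcodes of PBS, mix and homo. In mix it stood higher there, at 109 against 56.2 CPM. Nrf1 passed the 50 CPM minimum only through the high-mitochondrial side, so its call carries no weight. The list's summed level was 316 against 300.0 CPM in homo. In mix, of 7 such genes over the CPM minimum, 5 were higher by 2-fold or more and 0 lower. Over all 5682 genes compared in mix, 2578 were higher and 628 lower. The list gave 13 UMIs in mix, where 1 UMI exceeds the minimum, so this count carries no weight. The list's median in homo, -0.15, turned to 1.06 when the highest genes were left out of the scale.

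Transcripts that define T cells were present but low. CD3 genes were found in 31.7% of high-mitochondrial barcodes of homo, against 97.3% of the others and 73.4% of shallow barcodes, without thinning. At 500 UMIs the shares were 25.9%, 85.8% and 62.0%. Cd3e stood at 183 CPM in high-mitochondrial barcodes of PBS, 218 in mix and 219 in homo, against 1444, 1441 and 1377 CPM in the others. It fell by 2.81 ± 0.46 on the log2 scale (SE, edgeR adjusted p = 1.8e-08). Of the 16 T cell core genes 7 fell (Cd2, Trbc2, Thy1, Cd3g, Cd3d, Cd3e and Trac) and Bcl11b, a transcription factor of the T lineage, rose. Over all genes tested, 33.6% fell and 25.3% rose. In homo 6 of the 16 were at least 2-fold lower, 1 higher and 9 within 2-fold, against 32.4% lower over all genes. In homo and in the test across libraries the list as a whole was thus near the share over all genes. In PBS 8 of the 16 were at least 2-fold lower and 1 higher, against 565 lower of 5573 genes. In mix 11 were lower and 1 higher, against 628 lower of 5682 genes. In both libraries 1 UMI exceeds the CPM minimum. The median log2 ratio of this list in homo, -0.63, turned to 0.04 when the highest genes were left out of the scale. Ptprc, the leukocyte phosphatase CD45, was not called: it stood at 550.3, 980.3 and 880 CPM in PBS, mix and homo, against 732, 766 and 701 CPM, and at 500 UMIs it was found in 35.3%, 31.2% and 39.1% of high-mitochondrial, other and shallow barcodes of homo.

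CD8 genes were seen in fewer of these barcodes. Counting a barcode as CD8 with a UMI of Cd8a or Cd8b1 and none of Cd4 or Foxp3, thinning to 1000 UMIs left 52 high-mitochondrial barcodes in homo, of which 40.4% (27.0 to 54.9%) were CD8, against 81.8% of 7808 others and 70.4% of 297 shallow ones. None of the genes Cd8a, Cd8b1, Cd4 and Foxp3 was seen in 59.6%, 15.4% and 26.9%. Without thinning, 36.3% of the 347 were CD8, and in PBS and mix 5 and 6 of 26. Cd8a stood at 122, 327 and 373 CPM in PBS, mix and homo, against 1202, 1222 and 988 CPM in the others, and it fell by 1.97 ± 0.45 (log2, SE, edgeR adjusted p = 5.4e-05). Of 7 CD8 T cell genes tested, 6 fell and Runx3, a transcription factor of CD8 T cells, rose. Foxp3 gave 4 UMIs and Cd4 1 UMI in the 347 barcodes, so regulatory and CD4 T cells were not measurable at this depth.

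Markers of B and plasma, erythroid, neutrophil and fibroblast cells were at or near 0 in the 347 homo barcodes, while those of NK, dendritic, macrophage and tumour cells were not. The 8 B and plasma cell genes gave 0 UMIs, the 9 erythroid and platelet genes 1, the 10 neutrophil and mast cell genes 3, and the 12 fibroblast and endothelial genes 16, all from Pecam1. The fibroblast and endothelial list was higher than in the other homo barcodes, at 64.9 against 22.6 CPM (log2 ratio 1.52, 0.71 to 2.225). Of 16 macrophage and monocyte genes 9 were at 0, Lyz2 gave 1 UMI, and the summed level was 328 against 3454 CPM, with Ly6c2 the main part. Of 12 MC38 and epithelial genes 8 were at 0, Krt18 among them, and 117 of the 133 UMIs came from S100a6, which T cells also express. Lgals4, an intestinal galectin, gave 13 UMIs, with a log2 ratio of 4.10. It passed the 50 CPM minimum only through the high-mitochondrial side. The 10 NK cell genes, several of which T cells also express, gave 104 UMIs (422 against 1127 CPM) with 3 genes at 0, and of 4 tested across libraries 3 fell and 0 rose. The 14 dendritic cell genes gave 40 UMIs in homo, 32 of them from Irf8, with 9 genes at 0. Their summed level was 162 against 216 CPM in homo, but 1834 against 661 CPM in PBS and 1198 against 641 CPM in mix. Irf8, a transcription factor of dendritic and other immune cells, was not called against all other barcodes (0.22 ± 0.46, edgeR adjusted p = 0.680), and against shallow ones it rose by 1.31 ± 0.36 (edgeR adjusted p = 0.0032). The part of such cells in the other results was not tested.

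Genes of T cell function were mostly lower. Of 22 cytotoxic effector genes tested, 19 fell and 1 rose, and in homo the same numbers were at least 2-fold apart, with a median log2 ratio of -2.31. Gzmb, the cytotoxic protease granzyme B, stood at 245 CPM in high-mitochondrial barcodes of PBS, 327 in mix and 195 in homo, against 3853, 4126 and 1669 CPM in the others. The high-mitochondrial levels rest on 4, 6 and 48 UMIs. Granzyme genes are near-identical copies in part and may share reads. Ccl5, a chemokine of effector T cells, stood at 428 against 2792 CPM in PBS and 146 against 1821 in homo, and had 0 UMIs in high-mitochondrial barcodes of mix, where it was at least 12.8-fold lower. Nkg7, a granule protein, stood at 367 against 3292 CPM in PBS, 218 against 3133 in mix and 191 against 2262 in homo. Tnf, tumour necrosis factor, was the gene of this list that rose (239 against 68.9 CPM in homo).

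Few genes of inhibitory receptors passed the test. Of 14 exhaustion-associated genes tested, 3 fell (Lag3, Tigit and Rgs16) and 0 rose, both below the shares over all genes tested (33.6% lower and 25.3% higher). Lag3 stood at 61.1, 218 and 268 CPM in PBS, mix and homo, against 599, 586 and 513 CPM, and fell by 1.46 ± 0.48 (log2, SE, edgeR adjusted p = 0.0053). Pdcd1, the receptor PD-1, was not called, at 489, 327 and 385 CPM against 525, 513 and 751 CPM. The list's median in homo was -0.78, and -0.11 when the highest genes were left out of the scale. Of 19 genes of the IL-2 receptor and STAT5 list, 7 fell and 1 rose, shares close to or below the 33.6% lower and 25.3% higher over all genes. The median in homo, -0.59, turned to 0.20 on that scale.

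Endoplasmic reticulum chaperone and glycolysis genes were lower more often than the 33.6% over all genes. The immediate early and heat shock, integrated stress response and apoptosis lists were not. Of 11 endoplasmic reticulum chaperone genes 8 fell and 0 rose, and of 14 glycolysis genes 9 fell and 0 rose. Of 20 immediate early and heat shock genes 5 fell and 0 rose, among them Hspa8, a constitutive heat shock protein (428, 1035 and 636 CPM in PBS, mix and homo, against 2720.0, 2827 and 2195 CPM); the list's median in homo, -0.51, turned to 0.25 when the highest genes were left out of the scale. Of 6 integrated stress response genes Ddit3, the pro-apoptotic factor CHOP, rose, from 16 UMIs in homo and 1 each in PBS and mix, and Phgdh fell. Ddit3 stood at 28.3 CPM in the other barcodes of PBS and 34.5 in those of mix. It passed the 50 CPM minimum only through the high-mitochondrial side, so its call carries no weight. Of 13 apoptosis regulators 2 rose (Pmaip1 and Xiap) and 4 fell, among them Bax, Bak1 and Bcl2a1b, with shares near or below those over all genes and a median in homo of -0.06 that turned to 0.60 on the other scale.

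Of 18 proliferation genes tested 4 rose, 4 fell and 10 were not called, both shares below those over all genes (25.3% and 33.6%). Mki67, a large chromosome-coating protein used as a marker of cycling cells, stood at 306 CPM in high-mitochondrial barcodes of PBS, 272 in mix and 559 in homo, against 63.5, 58.9 and 102 CPM. It rose by 2.27 ± 0.48 on the log2 scale (SE, edgeR adjusted p = 1.8e-05), and 80 of the 347 homo barcodes held its 138 UMIs. At 500 UMIs the share with a Mki67 UMI was 17.3%, against 3.82% in the others and 5.94% in shallow barcodes. Top2a, a topoisomerase, also rose. Cenpe and Cenpf, which act at the kinetochore, rose as well, but at 29.7 and 38.2 CPM in the other homo barcodes they passed the 50 CPM minimum there only through the high-mitochondrial side, so their calls carry no weight. Birc5, Stmn1, Tubb5 and Ube2c, which act in mitosis as well, fell; Birc5 stood at 16.2 against 116 CPM in homo and passed only through the other barcodes. The median of the list in homo was -0.86 and turned to 0.00 when the highest genes were left out of the scale.

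Higher and lower genes differed in length, a feature the choice of barcodes did not use. Gene span and longest transcript were taken from GENCODE M21 by gene identifier. Genes at least 2-fold higher in homo had a median span of 64.4 kb and a median longest transcript of 5.13 kb, against 9.47 kb and 1.93 kb for those at least 2-fold lower. When 3812 named genes were split by span into 5 groups of equal size, 10.1% were higher and 64.5% lower in the shortest group (median 4.77 kb), with a median log2 ratio of -1.63. In the middle group (27.1 kb) 24.5% were higher and 30.6% lower, and in the longest (134 kb) 63.0% were higher and 2.62% lower, with a median of 1.22. The same split by longest transcript gave the same order, from 5.90% higher and 71.7% lower at 1.24 kb to 64.0% higher and 3.80% lower at 7.62 kb.

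**Figure D4:**
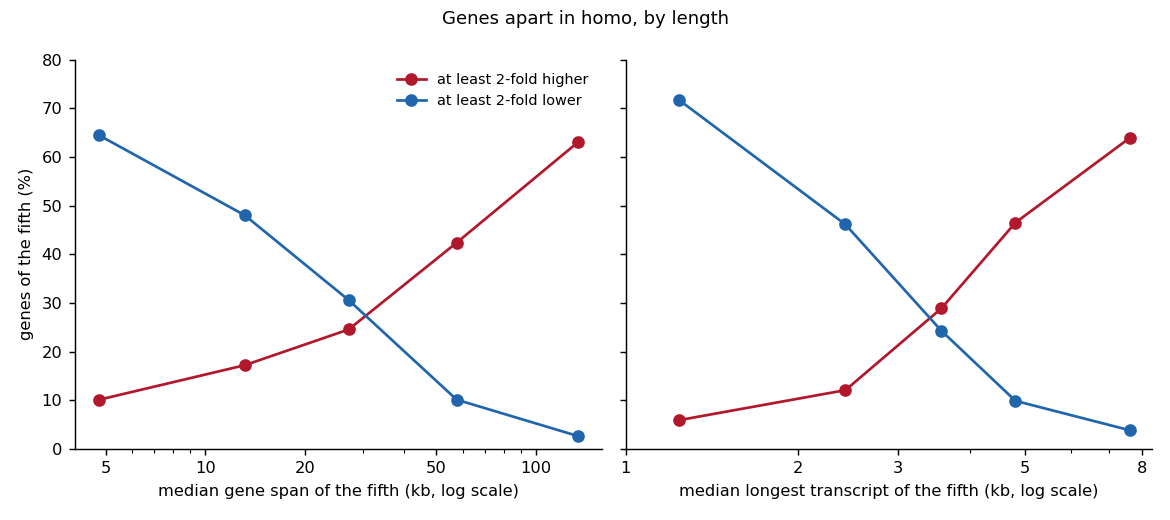
Percent of named genes at least 2-fold higher (red) or lower (blue) in high-mitochondrial barcodes of homo, in 5 equal groups by gene span (left) and by longest transcript (right); each point stands at the group's median length in kb, log scale. The share higher climbs with span from 10.1% to 63.0% and the share lower drops from 64.5% to 2.62%.

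The limit of 10% lay within a gradient. In homo the share of non-mitochondrial UMIs from the ribosomal RNA locus models was 0.951% in 7554 barcodes under 2.5% mitochondrial, 4.40% in 365 at 2.5 to 5%, 13.5% in 262 at 5 to 10%, 17.7% in 168 at 10 to 15%, 18.7% in 153 at 15 to 25% and 28.2% in 26 at 25% or more. Ribosomal protein genes went from 27.0% to 25.1%, 11.9%, 6.41%, 4.39% and 5.45% over the same bins. Malat1 reached its highest share between 10 and 15% (1.24%, from 0.194%) and was at 0.646% in the top bin. Histone genes were highest at 15 to 25% (0.516%). Median depth went from 7164 UMIs in the lowest bin to 994 at 5 to 10% and 664 in the highest, so depth and mitochondrial share move together here and their parts were not tested. PBS and mix had under 20 barcodes in each bin above 10%, and their values over the 3 lower bins moved the same way for both gene groups.

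**Figure D5:**
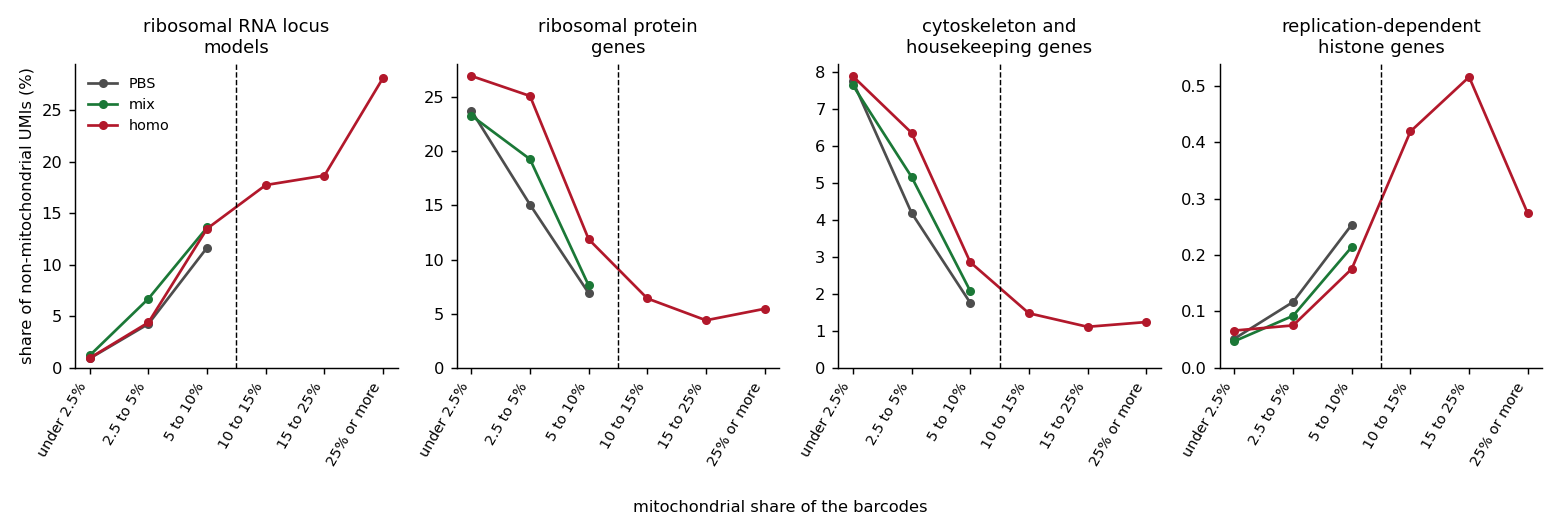
Share of non-mitochondrial UMIs (%) taken by 4 gene groups in barcodes binned by mitochondrial share, in PBS, mix and homo; bins under 20 barcodes are left out, and the dashed line marks the 10% limit. In homo the ribosomal RNA locus models climb from 0.951% to 28.2%, while ribosomal protein genes go from 27.0% to 5.45%.

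Within the high-mitochondrial barcodes of homo the same relations were weak. Over the 347 homo barcodes, which share 1 library, Spearman's correlation with the mitochondrial share was 0.18 for the ribosomal RNA locus models, -0.11 for ribosomal protein genes, -0.13 for Malat1 and -0.13 for total UMIs, given as a description without a p. It was -0.32 for the non-mitochondrial UMIs, which the share contains. Over the 26 barcodes of PBS it was 0.48 for the ribosomal RNA locus models and 0.29 for total UMIs, and over the 26 of mix 0.25 and -0.11.

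Against shallow barcodes of homo alone most of the lower side was kept and most of the higher side was not. With 329 high-mitochondrial and 670 other homo barcodes under 1500 UMIs, 337 genes were at least 2-fold higher and 905 lower, and of the 1248 and 1299 genes of the full comparison 290 and 814 stayed on their side. Across libraries edgeR's quasi-likelihood test called 210 higher and 566 lower of 3767 genes, and DESeq2 called 47 higher and 253 lower. Camk1d rose by 1.86 ± 0.40 on the log2 scale (SE, adjusted p = 9.4e-05), Cdk8 by 1.80 ± 0.45 (adjusted p = 9.1e-04) and Mki67 by 2.30 ± 0.37 (adjusted p = 4.4e-08). Cd3e fell by 2.13 ± 0.40 (adjusted p = 4.6e-06), Actb by 1.58 ± 0.35 (adjusted p = 1.5e-04) and B2m, the light chain of MHC class I, by 2.20 ± 0.37 (adjusted p = 2.1e-07). Malat1, Kmt2a and Macf1 were not called against shallow barcodes (0.86 ± 0.37 for Kmt2a and 0.79 ± 0.35 for Macf1). Other genes of the chromatin and scaffold list rose in edgeR against shallow barcodes. They were Ahnak (1.10 ± 0.32, adjusted p = 0.0060), Kmt2d (1.12 ± 0.38, adjusted p = 0.020) and Ubr4 (1.01 ± 0.36, adjusted p = 0.031). Restricting both sides to 1000 to 4000 non-mitochondrial UMIs left 52 high-mitochondrial and 1543 other barcodes in homo, with 780 genes at least 2-fold higher and 1252 lower. Across libraries edgeR then called 6 genes higher and 0 lower, with 421 at an unadjusted p under 0.05, and DESeq2 called 23 and 532.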

How the data were processed

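Raw UMI counts per gene and barcode, as the authors deposited them, were analysed for 3 libraries (56427870 UMIs in PBS, 49179708 in mix, 65336646 in homo; 32285 genes; at least 500 UMIs per barcode). Per the file headers the version of Cell Ranger was 7.1.0; the submitters' processing notes give 2.1.1, with Seurat 4.1.0 and the build mm39. The high-mitochondrial barcodes and the gene lists were chosen with earlier results of these data known. Counts were summed per library and side and scaled to CPM without mitochondrial genes, and ratios carry exact conditional binomial 95% intervals; a gene passed with 50 CPM on either side. Where a sum was 0, a bound was computed from 3 UMIs. edgeR 4.0.16 (quasi-likelihood, TMM, filterByExpr at the count equal to 50 CPM, a minimum set after a test on simulated data) and DESeq2 1.42.0 ran in R 4.3.3, with Benjamini-Hochberg adjustment over all genes kept. Nothing says that the libraries come from separate animals, so p-values measure no spread between animals. The edgeR p-values set each difference against a spread between these sums that is pooled largely over genes. Very small p-values thus do not show how closely the libraries matched for a given gene. Named genes are the 15 highest and 15 lowest in homo by the interval end nearest 0 (without mitochondrial, ribosomal protein, receptor segment or sex-linked genes or unnamed models), up to 4 of each list, and a fixed set of lineage genes; some of them are not reported here. Scrublet (scanpy 1.11.5) found 0 doublets per library at its own threshold, so all barcodes were kept; removing the highest scores (0.8% per 1000 barcodes) took no high-mitochondrial barcode. Gene lengths came from GENCODE M21, matched by identifier for 99.9% of genes, whose build differs from mm39, so no coordinates are given.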

Additional observations from a re-analysis of the deposited data

How the results depend on the processing

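Moving the mitochondrial limit to 5% gave shares of 0.792% in PBS, 1.14% in mix and 7.14% in homo, a limit of 15% gave 0.0676%, 0.106% and 2.10%, and 20% gave 0.0290%, 0.0355% and 0.915%. With at least 500 genes and 1000 UMIs the shares were 0%, 0.0246% and 0.651%. Genes at least 2-fold higher in homo numbered 2291 with a minimum of 20 CPM and 620 with 100 CPM (lower: 841). They numbered 780 with 1000 to 4000 UMIs on both sides, 337 against shallow barcodes and 2724 when the highest genes were left out of the scale. The share of CD8 among other homo barcodes was 62.6% at 500 UMIs and 87.5% without thinning, and that of barcodes with none of the lineage genes 36.0% and 4.61%. In the test across libraries, leaving out each library in turn gave 0 to 1182 genes higher and 0 to 1320 lower; the 0 came without homo. DESeq2 called 276 higher and 1240 lower. In edgeR, CD8 barcodes alone gave 160 higher and the shallow comparison 210 higher and 566 lower (DESeq2: 47 and 253). edgeR called 25 higher and 0 lower with at least 500 genes and 1000 UMIs in mix and homo (247 at an unadjusted p under 0.05; DESeq2: 46 and 465), PBS having no such barcode, and 6 higher and 0 lower at 1000 to 4000 UMIs (421; DESeq2: 23 and 532). The default edgeR minimum and no minimum gave 2084 and 2332 lower. Without the library block 1026 were higher and 1298 lower. Log2 ratios in homo that changed sign were Klf2 (0.090 with at least 500 genes and 1000 UMIs), Nrf1 (-0.80) and Ddit3 (-0.34) at 1000 to 4000 UMIs, and against shallow barcodes Neat1 (-0.22), Ddit4 (0.12), Phgdh (0.14), Foxp1 (-0.042) and Bach2 (-0.21). For all of these the cause was not tested. The comparison with shallow barcodes, the scale without the highest genes, the edgeR minimum and the removal of shared barcodes were chosen after seeing the data. No paired analysis was possible because each group holds 1 library and replicate numbers follow accession order only.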

Other observations

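Of 23 interferon-stimulated genes tested across libraries 12 fell and 1 rose, against 33.6% lower and 25.3% higher over all genes; Bst2, which tethers enveloped viruses, stood at 61.1 CPM in high-mitochondrial barcodes of PBS, 54.5 in mix and 73.0 in homo, against 909, 1038 and 509 CPM in the others. Of 10 naive, memory and stem-like genes 2 rose (Bach2, a repressor of effector differentiation, is one) and 3 fell, close to those shares. The list's median log2 ratio in homo was 0.53 while its summed level was lower, 1330.0 against 4230.0 CPM, with Ly6c2 a large part of the sum. Of 5 p53 target genes tested 2 rose and 2 fell, too few genes to set against those shares. Sesn1 and Btg2 were higher, and Bax and Ccng1 lower. Sesn1 stood at 17.7 CPM in the other barcodes of PBS and 22.6 in those of mix. It passed the 50 CPM minimum only through the high-mitochondrial side, so its call carries no weight. T cell receptor segments took 0.0920% of non-mitochondrial UMIs in high-mitochondrial barcodes of homo and 0.311% in the others.

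Leaving the high-mitochondrial barcodes out of whole-library sums changed few genes. Between homo and PBS, 7 of 3116 genes moved by more than 0.1 on the log2 scale, with 80 genes at least 2-fold apart with and without them. Between homo and mix 8 of 3106 genes moved, and between mix and PBS 0 of 3052. Gm26917 moved most in each comparison, by 0.286 between homo and PBS and by 0.319 between homo and mix. High-mitochondrial barcodes held 0.450% of all UMIs of homo and 9.44% of its mitochondrial UMIs.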
